A study of Mus musculus with 16 samples.

Results

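Described here are 9 genes of the mitogen-activated protein (MAP) kinase system in mouse macrophages: 3 kinase genes (Mapk3, Mapk8 and Mapk14) and 6 genes of dual-specificity phosphatases (Dusp1, Dusp2, Dusp4, Dusp5, Dusp6 and Dusp16). They were taken by name from a table of read counts with 27179 gene rows, and all 9 were found in it. RNA came from iBMDM MyD88-AGF, an immortalised line of bone marrow-derived macrophages whose genotype is given as MyD88-AGF WT in every sample. Cells were left untreated or received 10 ng/mL of lipopolysaccharide (LPS), the bacterial glycolipid that engages Toll-like receptor 4, for 6 h. LPS-treated cells were sorted by side scatter, a measure of light deflected by structures inside a cell, into a high gate called responders and a low gate called bystanders. A further LPS-treated sample, the LPS pool, and the untreated sample passed the sorter ungated once the gated cells were in. Gating and the order of collection therefore cannot be told apart wherever the pool or the untreated group is compared with a gate. Between a gate and untreated cells LPS differs as well, and its part cannot be told apart from theirs. Each of the 4 groups had 4 libraries. Nothing in the labels names separate cultures, and the spread behind each p-value is that between these samples, which may be technical.

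MAP kinases are the last step of tiered cascades that carry signals from Toll-like receptors: a MAP kinase kinase kinase activates a MAP kinase kinase, which phosphorylates a threonine and a tyrosine in the MAP kinase. The extracellular signal-regulated kinases (ERK), the c-Jun N-terminal kinases (JNK) and the p38 kinases drive cytokine transcription and stabilise cytokine mRNA in macrophages. Dual-specificity phosphatases remove both phosphates, and many of their genes are themselves induced by the kinases they switch off, which makes them feedback inhibitors. Phosphorylation was not measured here, and transcript levels say nothing of kinase activity.

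Library totals ran from 15287344 to 25193162 counts, and 12589 genes passed the low-count filter, the 9 described here among them, each with at least 164 reads in every library. All 9 macrophage markers checked were above 1 CPM (counts per 1000000 counted reads) on average, with summed levels of 3630 to 4676 CPM. Ly6g and S100a9 of neutrophils, Cd3e, Cd3g and Ncr1 of lymphocytes and Siglech of dendritic cells had 0 reads, whereas Xcr1, also on the dendritic cell list, ranged from 0.36 to 8.16 CPM. The summed level was 0.0704 to 0.615 CPM for 5 lymphocyte markers and 1.94 to 105 CPM for 5 fibroblast markers, of which 3 averaged over 1 CPM. Of 15 neural markers, 11 with a median under 1 CPM summed to 7.02 to 14.1 CPM in 6 libraries (LPS pool replicates 3 and 4, bystander replicates 3 and 4, responder replicate 1 and untreated replicate 1) and to 0.854 to 1.96 CPM in the other 10. Results that change without those 6 are given with both values. Levels are CPM after TMM scaling (trimmed mean of M-values), and unless another test is named every p-value is from edgeR's quasi-likelihood test, adjusted over all 12589 genes, with an adjusted p under 0.05 called a change.

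Between the high and low gates, Dusp6 ran against the other phosphatase genes among the 6 described. LPS raised all 6 phosphatase genes in the ungated pool, from 1.45-fold for Dusp4 to 5.82-fold for Dusp5. Between the gates, Dusp1, Dusp2, Dusp4, Dusp5 and Dusp16 were higher in responders, by 1.14-fold to 3.12-fold (Dusp4 with TMM scaling and not with library totals alone), while Dusp6 was 1.61-fold lower there and stood at its highest level in bystanders. Of the kinase genes, Mapk14 fell 1.45-fold in the pool, Mapk8 did not pass the test and Mapk3 rose 1.19-fold, a rise that turned into a fall with library totals alone. In these bulk samples, fewer cells with a transcript and less of it per cell cannot be told apart.

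**Figure D1:**
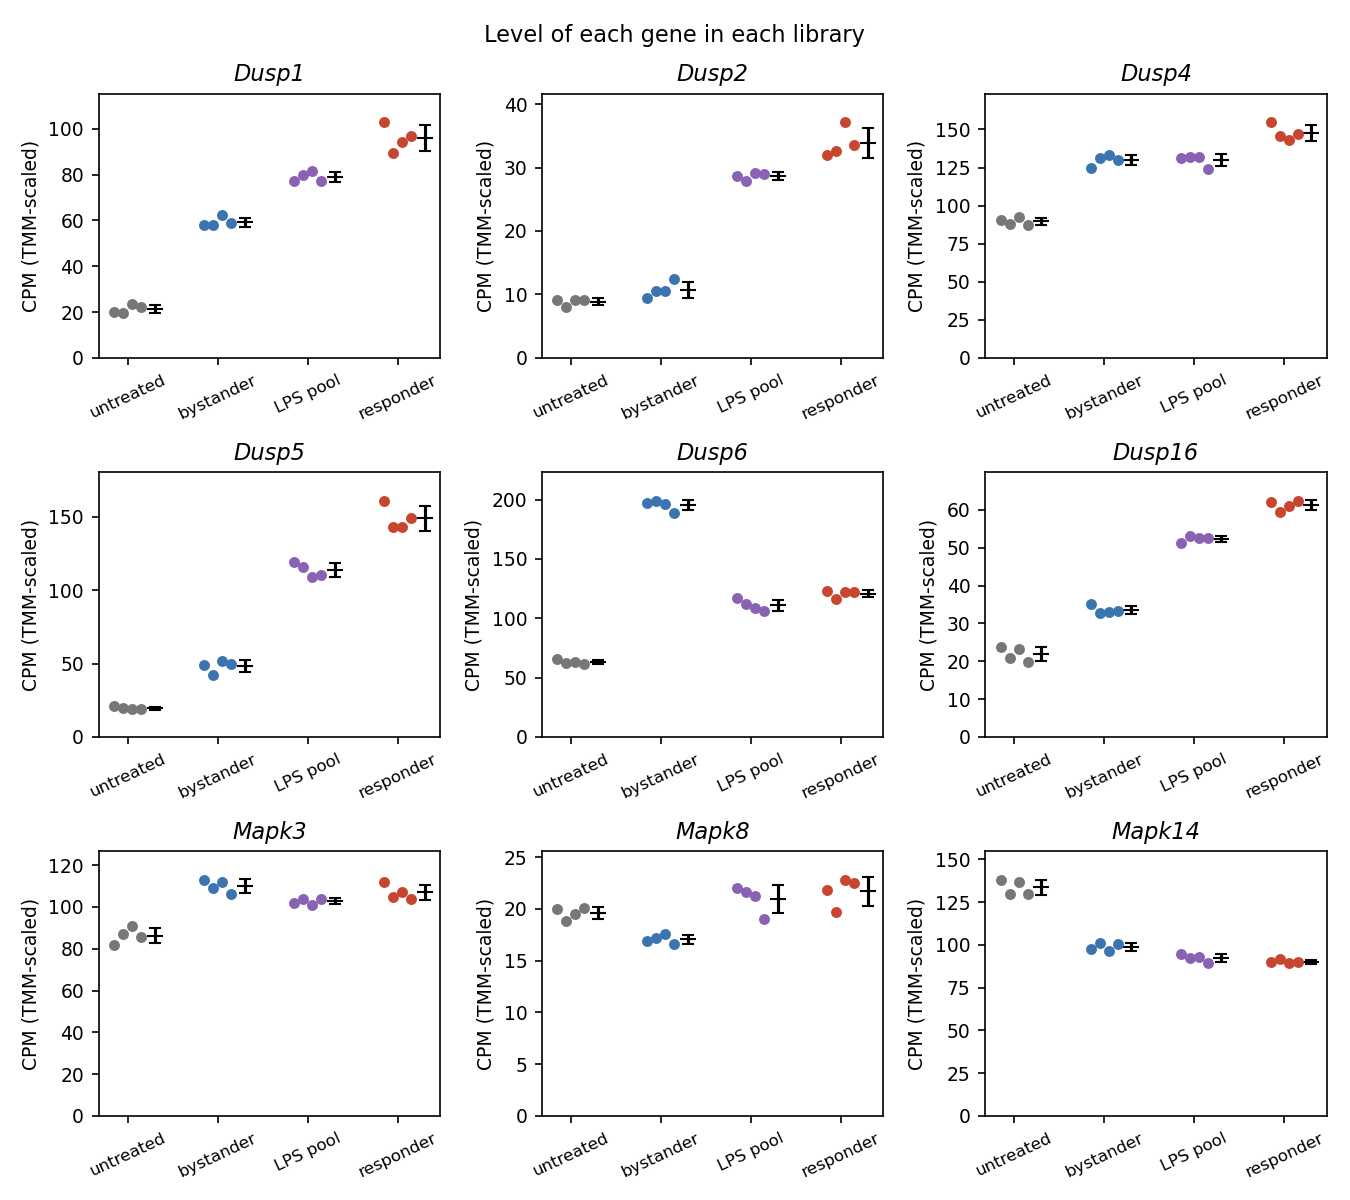
Level of each of the 9 genes (y axis, TMM-scaled CPM, from 0) in the 4 libraries of each group (x axis). Points are libraries and the black mark is the mean ± SD of 4; Dusp6 is highest in bystanders (189 to 199 CPM), whereas Dusp1, Dusp2, Dusp5 and Dusp16 are highest in responders.

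Among the phosphatases that act in the nucleus, Dusp5 (Entrez 240672, chromosome 19, 53529145 to 53541809, plus strand, GRCm38.p6) rose most in the pool. Its protein is selective for ERK. Dusp5 stood at 20.9, 19.5, 18.9 and 18.8 CPM in the untreated libraries, 48.7, 42.4, 51.9 and 49.5 CPM in bystanders, 119, 116, 109 and 110.4 CPM in the pool and 161, 143, 143 and 149 CPM in responders. The 4 groups did not overlap, and each step was called. The rise in the pool over untreated cells was 2.54 ± 0.055 on the log2 scale (SE), or 5.82-fold (adjusted p = 1.03e-24 by edgeR). Responders were above bystanders by 1.62 ± 0.045 on the log2 scale, or 3.07-fold (adjusted p = 5.33e-22), and bystanders above untreated cells by 1.31 ± 0.061, or 2.48-fold (adjusted p = 7.97e-17). An annotated antisense gene, AC137853.2, covers 22.1% of the exonic bases of Dusp5 in GENCODE M21, and the sources used here do not say that reads were counted by strand, so reads of both cannot be told apart.

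Dusp1 (Entrez 19252, chromosome 17, 26505591 to 26508472, minus strand), whose protein dephosphorylates mainly p38 and JNK and restrains cytokine production in LPS-treated macrophages, followed the same order of groups. Its level was 19.8, 19.7, 23.4 and 22.1 CPM in untreated libraries, 58.1, 57.9, 62.2 and 58.7 CPM in bystanders, 77.2, 80.0, 81.4 and 77.3 CPM in the pool and 103, 89.5, 94.3 and 96.8 CPM in responders. No 2 groups overlapped. Dusp1 rose 3.73-fold in the pool (log2 1.90 ± 0.047 SE, adjusted p = 1.70e-40 by edgeR) and was 1.61-fold higher in responders than in bystanders (log2 0.69 ± 0.038, adjusted p = 1.75e-23). Bystanders were 2.80-fold above untreated cells (log2 1.49 ± 0.048, adjusted p = 1.14e-34).

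Dusp2 (Entrez 13537, chromosome 2, 127336159 to 127338377, plus strand) encodes a nuclear phosphatase of activated leukocytes. It had the fewest reads of the phosphatase genes, 164 to 747 per library. Untreated libraries held 9.15, 8.01, 9.16 and 9.10 CPM, bystanders 9.39, 10.6, 10.6 and 12.4 CPM, the pool 28.6, 27.8, 29.2 and 28.9 CPM and responders 32.0, 32.6, 37.2 and 33.5 CPM. Bystanders lay just above untreated cells and far below the other LPS-treated groups. The summed level of 5 neutrophil markers was likewise low in untreated cells (0.18 to 0.25 CPM) and bystanders (0.115 to 0.349). It was higher in the pool (0.924 to 1.37) and responders (0.856 to 1.40). Most of that sum was S100a8, with 179 reads over all libraries. Mpo had 14 reads, Elane 6, and S100a9 and Ly6g both 0. The part of this sum was not tested. Responders exceeded bystanders 3.12-fold (log2 1.64 ± 0.066 SE, adjusted p = 1.64e-31 by edgeR), and the pool exceeded untreated cells 3.23-fold (log2 1.69 ± 0.071, adjusted p = 9.19e-31). The small difference of bystanders from untreated cells, 1.23-fold (log2 0.29 ± 0.080, adjusted p = 0.0011), was lost with library totals alone in place of TMM (log2 0.10, adjusted p = 0.265) and in the 10 libraries without neural transcripts (log2 0.19, adjusted p = 0.127).

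Dusp4 (Entrez 319520, chromosome 8, 34807610 to 34819894, plus strand) encodes a nuclear phosphatase of ERK, JNK and p38, and it had the smallest fold of the 6 in the pool and between the gates. Its level was 90.8, 87.6, 92.5 and 87.4 CPM in untreated libraries, 125, 131, 133 and 130.0 CPM in bystanders, 131, 132, 132 and 124 CPM in the pool and 155, 146, 143 and 147 CPM in responders. Bystanders and the pool overlapped throughout, with a log2 difference of 0.0 and an interval of -0.06 to 0.06 (adjusted p = 0.987 by edgeR), whereas library totals alone gave 0.14, called higher in bystanders (adjusted p = 4.97e-05). The rise in the pool was 1.45-fold (log2 0.54 ± 0.030 SE, adjusted p = 2.06e-24), or log2 0.21 with library totals alone (adjusted p = 8.63e-09). The responder excess over bystanders, 1.14-fold (log2 0.18 ± 0.028, adjusted p = 4.40e-08), was absent with library totals alone, at log2 -0.01 and adjusted p = 0.844.

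The cytoplasmic phosphatases split. Dusp16 (Entrez 70686, chromosome 6, 134715468 to 134807063, minus strand), whose protein acts mainly on JNK and shuttles between nucleus and cytoplasm, followed Dusp5. It stood at 23.8, 20.8, 23.1 and 19.8 CPM in untreated libraries, 35, 32.7, 32.9 and 33.4 CPM in bystanders, 51.2, 53.1, 52.7 and 52.6 CPM in the pool and 62.1, 59.5, 60.9 and 62.4 CPM in responders. The groups were separate at every step, and Dusp16 was 1.83-fold higher in responders than in bystanders (log2 0.87 ± 0.043 SE, adjusted p = 9.11e-27 by edgeR) and rose 2.40-fold in the pool (log2 1.26 ± 0.048, adjusted p = 8.12e-33).

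Dusp6 (Entrez 67603, chromosome 10, 99263231 to 99267489, plus strand) encodes the cytoplasmic phosphatase that is selective for ERK, and its transcription is a widely used readout of ERK signalling. Untreated libraries held 65.4, 62.1, 62.9 and 61.7 CPM, bystanders 197, 199, 196 and 189 CPM, the pool 117, 112, 109 and 106 CPM and responders 123, 116, 122 and 122 CPM. Every bystander library was above every other library. The summed level of 5 dendritic cell markers was also highest there, at 0.498 to 0.874 CPM in untreated libraries and 6.99 to 8.24 in bystanders. It was 3.32 to 5.28 in the pool and 4.14 to 5.33 in responders. Nearly all of that sum was Xcr1, with 1299 reads over all libraries. Zbtb46 had 60 reads, Flt3 7, Ccr7 3 and Siglech 0. The part of this sum in the result was not tested. Bystanders exceeded untreated cells 3.10-fold (log2 1.63 ± 0.030 SE, adjusted p = 3.04e-50 by edgeR), the pool 1.77-fold over untreated cells (log2 0.82 ± 0.032, adjusted p = 2.77e-32; 0.49 with library totals alone) and responders 1.92-fold (log2 0.94 ± 0.031, adjusted p = 3.06e-36; 0.56 with library totals alone). Responders were 1.61-fold below bystanders (log2 -0.69 ± 0.027, interval -0.75 to -0.64, adjusted p = 9.07e-32), and the value lay between -0.88 and -0.64 under all alternatives tried. The responder and pool libraries overlapped at 116 and 117 CPM, and their called difference of 0.12 (adjusted p = 0.00167) was lost with library totals alone (0.06, adjusted p = 0.114) and without the 6 libraries that hold neural transcripts (0.07, adjusted p = 0.173).

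The promoters of Dusp1, Dusp5 and Dusp6 are shown because the first pair were higher in responders than in bystanders and the third was lower. Each run is the 250 bases before the gene's start on its own strand, from RefSeq, build GRCm38.p6, with capitals for the searched motifs. The windows are chr17:26508473-26508722 (minus strand) for Dusp1, chr19:53528895-53529144 (plus strand) for Dusp5 and chr10:99262981-99263230 (plus strand) for Dusp6.
Dusp1: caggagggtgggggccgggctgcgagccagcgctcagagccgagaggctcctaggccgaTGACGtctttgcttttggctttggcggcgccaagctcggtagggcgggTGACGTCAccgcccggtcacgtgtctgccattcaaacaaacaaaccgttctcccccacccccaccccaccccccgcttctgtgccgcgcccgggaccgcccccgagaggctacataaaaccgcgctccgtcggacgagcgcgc
Dusp5: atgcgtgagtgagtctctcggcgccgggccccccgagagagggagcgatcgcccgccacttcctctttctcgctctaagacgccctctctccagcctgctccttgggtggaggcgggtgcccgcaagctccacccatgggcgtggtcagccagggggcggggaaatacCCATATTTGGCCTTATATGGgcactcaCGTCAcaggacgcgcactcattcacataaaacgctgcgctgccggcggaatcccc
Dusp6: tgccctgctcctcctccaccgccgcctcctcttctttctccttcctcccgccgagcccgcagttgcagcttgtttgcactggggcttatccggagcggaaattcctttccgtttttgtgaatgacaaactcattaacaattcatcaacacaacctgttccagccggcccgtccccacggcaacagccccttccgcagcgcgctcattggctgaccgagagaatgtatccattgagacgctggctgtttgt
Searched on both strands were TGACGTCA and its part TGACG (cyclic AMP response element), TGANTCA (AP-1), CCGGAAG (ETS factors), TATAAA, the NF-kappaB consensus and the CArG box of serum response factor. Dusp1 holds 1 full TGACGTCA, 143 bases before the start, which is present in 1.55% of 32817 RefSeq promoter windows of this length, and 1 separate TGACG at 191 bases (17.7% of windows hold TGACG, overlaps with the full element counted). Dusp5 holds 2 adjoining CArG boxes, CCATATTTGG at 82 and CCTTATATGG at 72 bases before the start, where 1.47% of windows have any, and 1 TGACG on the other strand. None of the searched letters were in the Dusp6 window, nor in those of Dusp2 and Mapk14, which says nothing of the factors. Of the windows not shown, that of Dusp16 holds TGACG at 70 bases before the start. A Mapk8 window holds TGACG at 36 and at 14 bases. These matches are a description of letters, not of binding. RefSeq promoter entries were found for 7 of the 9 genes.

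Turning to the kinases, Mapk14 (Entrez 26416, chromosome 17, 28691342 to 28748405, plus strand), the gene of p38 alpha, was lower after LPS in every group. Its level was 138, 130.0, 137 and 129.7 CPM in untreated libraries, 97.6, 101, 96.4 and 100.5 CPM in bystanders, 94.7, 92.2, 93.0 and 89.1 CPM in the pool and 89.8, 91.9, 89.2 and 90.0 CPM in responders. All untreated libraries were above all LPS-treated ones. The sum of all 15 neural markers had the same order of groups, at 405 to 442 CPM in untreated libraries, 374 to 389 in bystanders, 274 to 287 in the pool and 244 to 275 in responders, and its part was not tested. It fell 1.45-fold in the pool (log2 -0.53 ± 0.030 SE, adjusted p = 1.43e-24 by edgeR), 1.35-fold in bystanders (log2 -0.43 ± 0.029, adjusted p = 4.42e-21) and 1.48-fold in responders (log2 -0.57 ± 0.029, adjusted p = 1.64e-26). With library totals alone the log2 folds were -0.86 in the pool and -0.95 in responders. The gates differed by 1.1-fold, responders lower (log2 -0.13 ± 0.030, adjusted p = 0.000103), or log2 -0.32 with library totals alone. That call was lost in the 6 libraries with neural transcripts (log2 -0.13, adjusted p = 0.0551), which hold 1 responder and 2 bystander libraries.

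Mapk3 (Entrez 26417, chromosome 7, 126759626 to 126765816, plus strand) encodes ERK1. It stood at 81.8, 87.2, 90.9 and 85.4 CPM in untreated libraries, 113, 109, 112 and 106 CPM in bystanders, 102, 104, 101 and 104 CPM in the pool and 112, 105, 107 and 104 CPM in responders. LPS-treated libraries were all above untreated ones, by 1.19-fold in the pool (log2 0.25 ± 0.032 SE, adjusted p = 4.81e-10 by edgeR), but with library totals alone the sign turned, to log2 -0.08 (adjusted p = 0.0231). Responders and bystanders overlapped, with a log2 difference of -0.04 and an interval of -0.10 to 0.02 (adjusted p = 0.252). With library totals alone that difference was -0.23 and was called (adjusted p = 1.34e-09), and in the 6 libraries with neural transcripts it was 0.04 (adjusted p = 0.56).

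Mapk8 (Entrez 26419, chromosome 14, 33377898 to 33447353, minus strand), the gene of JNK1, was the least abundant kinase transcript, at 270 to 483 reads per library. Levels were 20, 18.8, 19.5 and 20.1 CPM in untreated libraries, 16.9, 17.2, 17.6 and 16.6 CPM in bystanders, 22.0, 21.6, 21.2 and 19.0 CPM in the pool and 21.8, 19.7, 22.8 and 22.5 CPM in responders. Bystanders were below all other groups without overlap, and the other 3 groups overlapped each other. Responders exceeded bystanders 1.27-fold (log2 0.35 ± 0.061 SE, adjusted p = 1.13e-06 by edgeR), or by log2 0.16 with library totals alone (adjusted p = 0.0184). Bystanders were 1.15-fold below untreated cells (log2 -0.20 ± 0.062, adjusted p = 0.00348), or by log2 -0.39 with library totals alone. The call was not kept in the 6 libraries with neural transcripts (log2 -0.22), which hold only replicate 1 of the untreated group. The pool did not pass against untreated cells (log2 0.10, interval -0.02 to 0.22, adjusted p = 0.148), but passed without pool replicate 4 (log2 0.14, adjusted p = 0.0452) and turned to -0.23 with library totals alone (adjusted p = 0.000658). Responders against untreated cells gave log2 0.15 (adjusted p = 0.0224), a call lost without a low-count filter (adjusted p = 0.0509). It was also lost without responder replicate 3 (adjusted p = 0.0678), responder replicate 4 (0.0585) or untreated replicate 2 (0.0622). The 6 libraries with neural transcripts hold only replicate 1 of each of these groups, and the call was not kept there (log2 0.13). With library totals alone the fold turned (log2 -0.24, adjusted p = 0.0003).

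**Figure D2:**
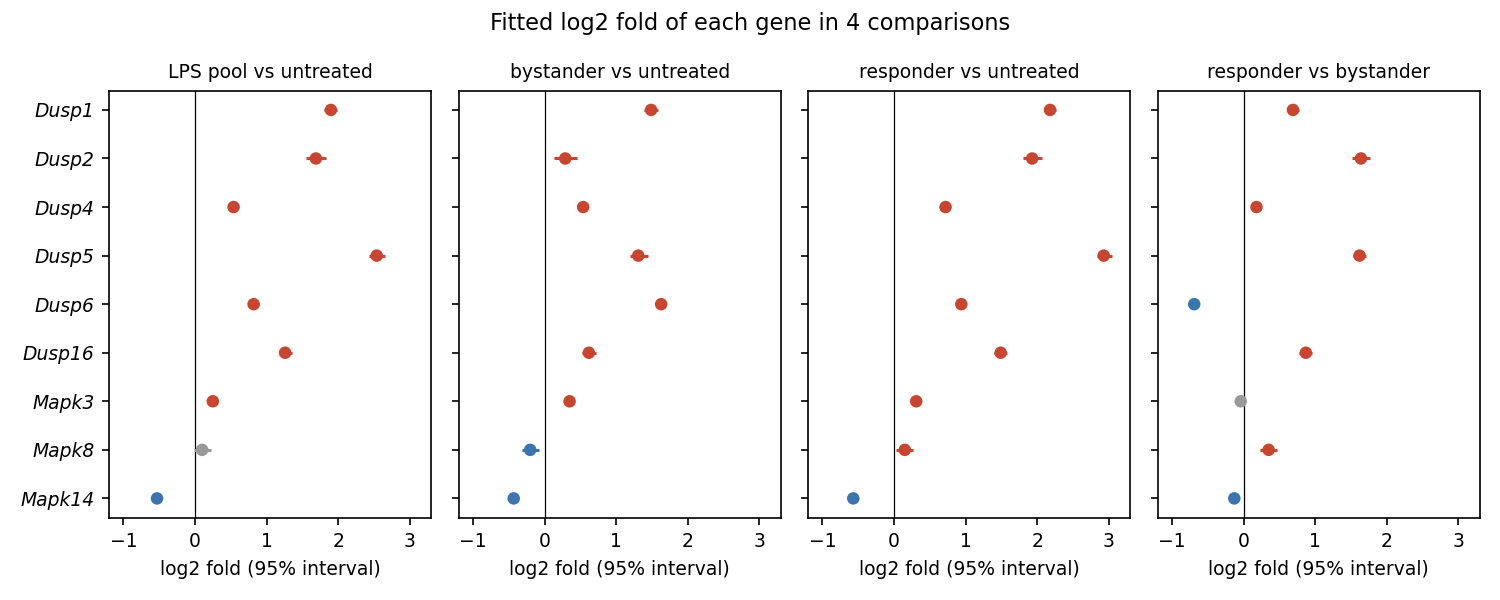
Fitted log2 fold (x axis) of each gene (rows) in 4 comparisons, with 95% intervals. Red points are called higher, blue lower and grey not called; Dusp6 is the phosphatase gene on the lower side between responders and bystanders (-0.69), and the 3 comparisons with untreated cells share those 4 libraries.

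Counted over comparisons, 8 of the 9 genes were called between responders and bystanders, 6 higher and 2 lower, where 70% of all genes tested were called, 34.7% higher and 35.3% lower. In the same comparison 8 of 9 had no overlap between libraries, against 63.9% of all genes. Higher by at least 2-fold were 2 of 9, Dusp2 and Dusp5, against 5.82% of all genes. In the pool against untreated cells 8 of 9 were called, 7 higher and 1 lower, against 71.9%, 34.1% and 37.8% of all genes, and 4 of 9 (Dusp1, Dusp2, Dusp5 and Dusp16) rose at least 2-fold, against 9.72%. The number called was thus near the background in both comparisons. Without the 6 libraries with neural transcripts, 8 of 9 were called in each. The median log2 fold of the 9 was 0.35 between the gates, beside -0.01 over all genes, and 0.82 in the pool, beside -0.03. With library totals alone the same medians of the 9 were 0.16, beside -0.20, and 0.49, beside -0.36.

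Against untreated cells, 9 of 9 were called in responders, 8 higher and 1 lower, where 75% of all genes were called, 36.5% higher and 38.5% lower. In bystanders 9 of 9 were called, 7 higher and 2 lower, against 67.1%, 34.1% and 32.9% of all genes, and 8 of 9 without the 6 libraries with neural transcripts, Dusp2 being the gene lost. Responders against the pool gave 6 of 9 higher, which are the 6 phosphatase genes, where 16% of all genes were higher and 25.5% called. The excess ran from 0.12 for Dusp6 to 0.39 for Dusp5 on the log2 scale. Dusp2 lost its call there in the 6 libraries with neural transcripts (log2 0.14), which hold only replicate 1 of the responders. Bystanders against the pool gave 8 of 9 called, where 67% of all genes were, with 3 higher (Dusp6, Mapk3 and Mapk14) and 5 lower (Dusp1, Dusp2, Dusp5, Dusp16 and Mapk8), against 34.1% and 32.9% of all genes. The fold of Dusp6 was 1.75 and those of Mapk3 and Mapk14 both 1.07, calls that the smaller library subsets did not keep for Mapk3 (adjusted p = 0.113 with neural transcripts) and Mapk14 (adjusted p = 0.083 without them). These comparisons share libraries with those above.

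Small values depend on the scaling. Library totals alone in place of TMM put the median log2 fold of all genes at -0.20 instead of -0.01 between the gates, where 27.8% instead of 49.5% of calls were then higher. Against untreated cells the median became -0.36 instead of -0.03 for the pool (21.6% instead of 47.4% of calls higher), -0.41 instead of -0.02 for responders (21.7% instead of 48.7%) and -0.18 instead of 0.01 for bystanders (27.5% instead of 50.9%). Against the pool, bystanders had a median of 0.14 instead of 0.0 (68.4% instead of 50.9% of calls higher) and responders -0.05 instead of 0.01 (30.6% instead of 62.7%). Dusp1, Dusp2, Dusp5, Dusp6 and Dusp16 kept their direction and call under this scaling between the gates and in the pool, whereas Dusp4 and the kinase genes Mapk3 and Mapk8 each changed in 1 of these comparisons or both, as given above.

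Per length, the make-up of the phosphatase transcripts differed between the gates. Dividing CPM by the summed exon length of each gene (GENCODE M21, all transcripts, which understates genes with long or many alternative exons), the 6 phosphatase genes summed to 74.3 ± 2.03 CPM per kb in untreated cells, 157 ± 2.46 in bystanders, 174 ± 3.99 in the pool and 206 ± 6.83 in responders (SD, n = 4 each). In untreated cells Dusp4 made up 44.0 ± 0.382% and Dusp6 27.1 ± 0.507% of that sum. Dusp6 led in bystanders with 39.8 ± 1.04% and fell to 18.7 ± 0.356% in responders, where Dusp5 led with 29.2 ± 0.689%. Dusp5 made up 12.4 ± 0.933% in bystanders, and the libraries of both gates did not overlap for either gene, at 38.7 to 40.8% against 18.3 to 19.1% for Dusp6 and 11 to 13.1% against 28.4 to 30.1% for Dusp5. On the same per-length scale the kinase levels in responders were 47.3 CPM per kb for Mapk3, 20.6 for Mapk14 and 1.90 for Mapk8, and in untreated cells 38.3, 30.5 and 1.71.

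**Figure D3:**
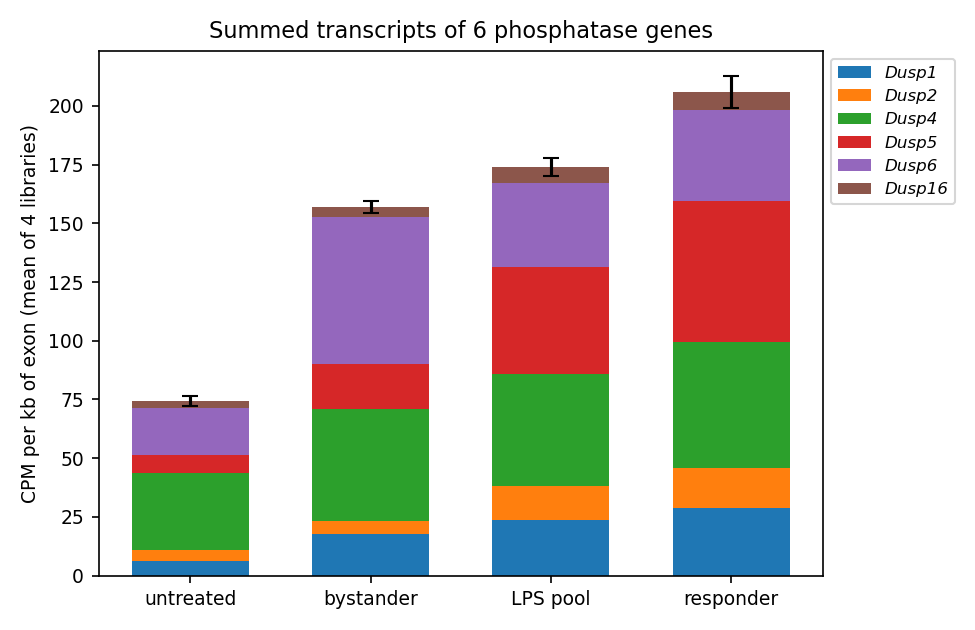
Summed level of the 6 phosphatase genes (y axis, CPM per kb of exon, from 0) in each group, stacked by gene; bars are means of 4 libraries and error bars the SD of the sum. The Dusp6 section makes up 39.8% of the bystander bar and 18.7% of the responder bar, and the Dusp5 section 12.4% and 29.2%.

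The genes whose levels followed each member most closely over the 16 libraries were found by Pearson correlation of log2 CPM among 9602 genes with a mean of at least 5 CPM. They describe 16 points that fall into 4 groups, and no p is given. Nearest to Dusp1 were Cers6 (r = 0.9971) and Rhbdf2 (0.9963), to Dusp2 Myadm (0.995) and Slc11a2 (0.9947), to Dusp4 Ptk2b (0.9911) and Esyt1 (0.9909), to Dusp5 the cytoplasmic actin gene Actg1 (0.9974) and the proprotein convertase gene Furin (0.9973), and to Dusp16 Pfkfb3 (0.9951) and again Actg1 (0.9943). Dusp6 was nearest to Zcchc2 (0.9985) and Zup1 (0.998). Zcchc2 stood at 51.5, 262, 115 and 131 CPM and Zup1 at 4.48, 38.6, 12.7 and 14.6 CPM in untreated, bystander, pool and responder groups, so both share the bystander maximum. Nearest to Mapk14 were Lrrk1 (0.9953) and Zmiz1 (0.9887), to Mapk3 Sertad3 (0.9652) and Pcgf5 (0.9645) and to Mapk8 Tut1 (0.9696) and Bcorl1 (0.9474).

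Other genes of the pathway, from lists by role, were described for the same comparisons. Their counts are to be read against all genes, of which 34.7% were higher and 35.3% lower between the gates and 34.1% and 37.8% in the pool, and nothing particular to a list is drawn from them. Of 4 further MAP kinase phosphatase genes 3 were higher and 1 lower in responders than in bystanders, with a median log2 fold of 0.50. Dusp7, which encodes a cytoplasmic ERK phosphatase like that of Dusp6, averaged 125 ± 2.83 CPM in bystanders and 182 ± 2.46 in responders (log2 0.54, adjusted p = 1.59e-27 by edgeR). Dusp9, the third cytoplasmic ERK phosphatase gene, fell from 32.2 ± 0.184 CPM in untreated cells to 18.7 ± 0.984 in bystanders and 12.0 ± 0.664 in responders (log2 -0.64 between the gates, adjusted p = 6.10e-13). The high bystander level of Dusp6 was therefore not shared by either relative. In the pool 3 of these 4 rose and 1 fell, and with library totals alone the counts were the same in both comparisons. Of 9 atypical dual-specificity phosphatase genes tested (10 listed), 2 were higher and 4 lower in responders, or 2 and 6 with library totals alone. Dusp28 was lower (log2 -0.81, adjusted p = 3.78e-10), as was Dusp3 (log2 -0.18, adjusted p = 6.33e-09), and Dusp14 rose in the pool from 2.67 ± 0.448 to 6.49 ± 0.429 CPM (log2 1.29, adjusted p = 1.09e-12). Like Dusp6, Dusp28 had its highest mean in bystanders, at 9.44 CPM beside 3.58 in untreated cells, 5.95 in the pool and 5.36 in responders. In the pool 2 of the 9 were higher and 2 lower, or 2 and 7 with library totals alone.

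Of 13 MAP3K genes, the first tier of the cascades, 6 were higher and 4 lower in responders than in bystanders, beside 34.7% and 35.3% of all genes, or 2 and 8 with library totals alone, and 3 higher and 7 lower in the pool (2 and 11). Map3k8, the gene of the TPL2 kinase that activates ERK after LPS, rose from 7.38 ± 0.707 CPM in untreated cells to 23.3 ± 1.82 in bystanders, 23.9 ± 1.33 in the pool and 27.0 ± 1.03 in responders (pool log2 1.70, adjusted p = 8.09e-30 by edgeR). Between the gates its log2 difference was 0.21 (adjusted p = 0.00119), or 0.02 with library totals alone (adjusted p = 0.74). Map3k7, the gene of TAK1, was lower in responders (log2 -0.39, adjusted p = 4.49e-13), Map3k6 higher (log2 0.89, adjusted p = 9.86e-11), and Map3k20 rose in the pool (log2 0.47, adjusted p = 6.66e-20).

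Of 7 MAP2K genes 2 were higher and 4 lower in responders, beside the same 34.7% and 35.3%, or 2 and 5 with library totals alone, and 3 each rose and fell in the pool (2 and 5). Map2k1, which encodes the ERK activator MEK1, stood at 145 ± 3.52, 228 ± 2.22, 272 ± 3.36 and 314 ± 5.38 CPM in untreated, bystander, pool and responder groups (responder against bystander log2 0.46, adjusted p = 7.76e-28 by edgeR). Map2k4, an activator gene of JNK, rose in the pool (log2 0.72, adjusted p = 2.31e-24), and Map2k5 was lower in responders (log2 -0.67, adjusted p = 1.61e-18). Of 7 other MAP kinase genes tested (10 listed), 4 were higher in responders and the other 3 did not pass, whereas library totals alone gave 3 higher and 1 lower, and the pool had 3 higher and 1 lower (2 and 3). Mapk7, the ERK5 gene, was 13.7 ± 0.767 CPM in bystanders, 22.5 ± 0.763 in untreated cells and 33.0 ± 1.74 in responders (log2 1.26 between the gates, adjusted p = 5.90e-29). Mapk6 was higher in responders (log2 0.46, adjusted p = 6.49e-25), and Mapk11, the p38 beta gene, rose in the pool (log2 0.76, adjusted p = 2.51e-09).

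Downstream, 4 of 10 genes of kinases activated by MAP kinases were higher and 5 lower in responders, or 4 and 6 with library totals alone, and 5 rose and 5 fell in the pool (2 and 6). Mapkapk2, the p38-activated kinase gene whose product stabilises cytokine mRNA, stood at 275 ± 5.93 CPM in untreated cells, 384 ± 10.3 in bystanders, 1132 ± 7.86 in the pool and 1313 ± 13.5 in responders (log2 1.77 between the gates, adjusted p = 6.90e-61 by edgeR). Rps6ka4, the MSK2 gene, rose in the pool (log2 0.75, adjusted p = 6.06e-24). Mknk2, whose product phosphorylates a translation initiation factor, was lower in responders at 114 ± 2.93 against 209 ± 3.84 CPM (log2 -0.87, adjusted p = 4.38e-37).

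Of 8 scaffold and feedback inhibitor genes tested (12 listed) 4 were higher and 4 lower in responders, beside 34.7% and 35.3% of all genes, or 2 and 5 with library totals alone, and 5 rose and 2 fell in the pool (1 and 5). Spred1, which encodes an inhibitor of RAS and RAF, had its maximum in bystanders like Dusp6, at 221 ± 6.40 CPM against 101 ± 2.12 in untreated cells and 149.8 ± 2.16 in responders (log2 -0.56 between the gates, adjusted p = 4.34e-28 by edgeR). Its relative Spred3 was higher in responders (log2 1.35, adjusted p = 1.83e-25), and Rasa1, a RAS GTPase-activating protein gene, lower (log2 -0.66, adjusted p = 7.01e-28). Of 8 ERK output genes tested (10 listed) 2 were higher and 4 lower in responders, with a median log2 fold of -0.40, or 2 and 5 with library totals alone, and 4 rose and 2 fell in the pool (3 and 2). Phlda1 reached 86.8 ± 0.582 CPM in the responder group, beside 22.4 ± 1.02 for bystanders (log2 1.94, adjusted p = 3.62e-46). Etv5, an ETS factor gene, was 44.6 ± 1.03 CPM in bystanders, near the 47.1 ± 1.33 of untreated cells, and 16.1 ± 1.51 in responders (log2 -1.47, adjusted p = 2.50e-32). Ccnd1, the cyclin D1 gene, rose in the pool (log2 0.76, adjusted p = 6.78e-43) and was slightly lower in responders than bystanders (log2 -0.11, adjusted p = 1.45e-07). Spry2, a Sprouty feedback inhibitor gene on both lists and chosen after its values were seen, was 14.2 CPM in responders and 27.0 CPM in bystanders (log2 -0.93, adjusted p = 5.35e-19).

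**Figure D4:**
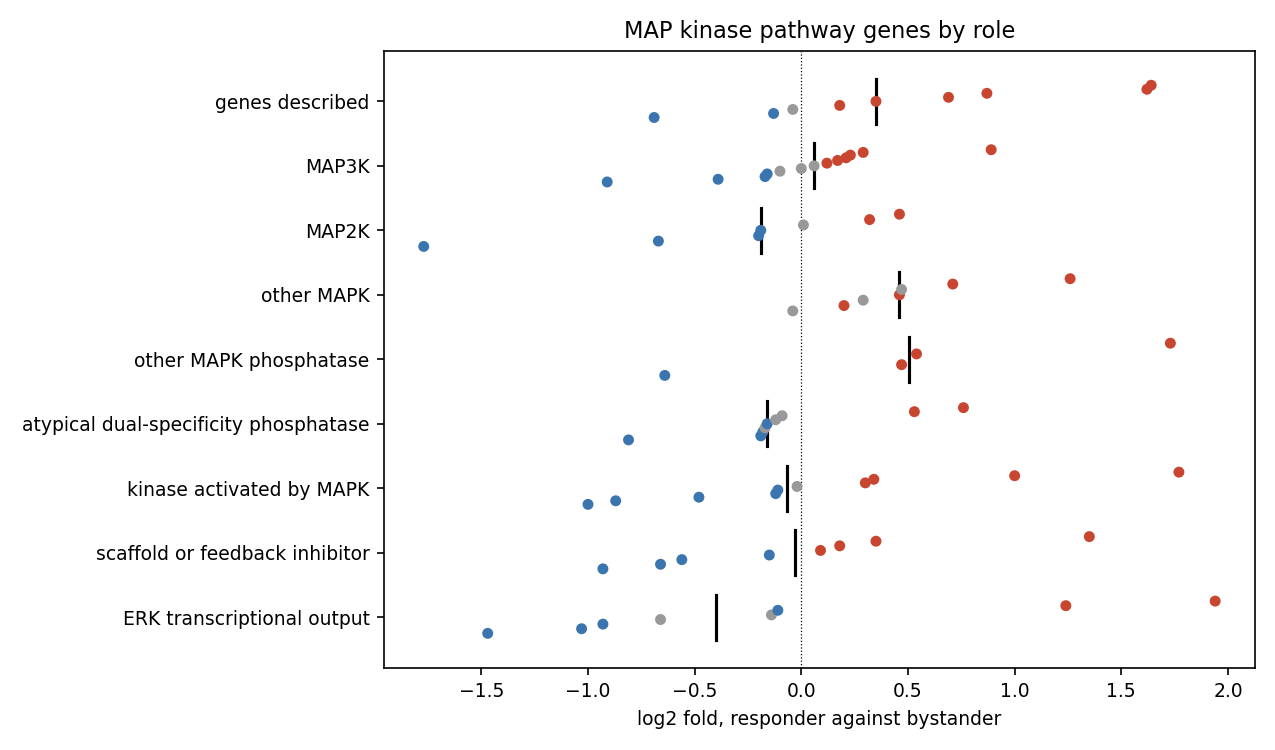
Log2 fold of responders against bystanders (x axis) for each gene tested of the lists by role (rows, the 9 genes described first), with black bars at the list medians. Red points are called higher, blue lower and grey not called; the medians run from -0.40 for ERK output to 0.50 for the other MAP kinase phosphatases.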

How the data were processed

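Values for the 16 libraries came as raw counts per Entrez gene, as deposited by the authors. HISAT2 2.2.2, featureCounts 2.1.1, fastp 1.1.0, cutadapt 3.7 and the build GRCm38 (mm10) were used, per the submitters' processing notes, which give no order. How multi-mapping reads were handled, the strand setting and the annotation were not given in the sources used here. The table had 3 empty columns and 0 columns of other samples. Symbols were matched for 25275 of 27179 gene rows through RefSeq (GRCm38.p6), and the unmatched rows, with 0.399% of the counts, stayed in the tests.

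The model was edgeR 4.0.16 (R 4.3.3): filterByExpr (minimum count 10), TMM scaling, and 1 robust quasi-likelihood model with 1 mean per group over all 16 libraries. Standard errors were taken from the fold and its F value, and group values are mean ± SD of 4 libraries. The precision of a gene is limited by its reads per library. Alternatives were DESeq2 1.42.0, library totals alone, no filter, 2-group fits, a replicate block, leaving out each library, and the libraries with or without neural transcripts; the last, and a block within pairs of groups, were chosen after seeing the data. The fit was tested on simulated counts.

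The genes described and the lists were chosen with earlier results of these data known. Named beside them are the 2 genes per list with the smallest p in each of 2 comparisons at a mean of at least 1 CPM, and 2 genes per member with the highest correlation. Same-numbered libraries deviated together (r over 0.1 in every pair) for bystanders with the pool (0.391 to 0.475) and for responders with untreated cells (0.169 to 0.605). In other pairs of groups this did not hold for every same-numbered pair. Differently numbered libraries of different groups that were alike in neural transcripts had r of 0.057 to 0.479. Libraries unlike in them had r of -0.52 to -0.164. The parts of number and neural transcripts were not tested. The labels do not say what the numbers share. Replicate libraries differed by 1.62 to 3.13 in chi-square per degree of freedom, above sampling noise. Some genes of the lists are not reported here by name.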

Additional observations from a re-analysis of the deposited data

Results flagged for a closer look

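Of 36 sets of 4 libraries (9 genes in 4 groups), 1 held a library that stood apart by Dixon's test at the 95% level, where chance gives about 1 in 20. Dusp2 was at 8.01 CPM (178 reads) in untreated replicate 2, beside 9.10 to 9.16 CPM in the other 3 untreated libraries. Without that library the log2 fold of Dusp2 in the pool against untreated cells was 1.65, beside 1.69 with it.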

How the results depend on the processing

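Over 6 comparisons and all alternatives, 792 of 828 log2 folds of the 9 genes kept their direction and side of the threshold. DESeq2, the 2-group fits and the replicate block changed no call of a member. The block over all libraries gave 8807 calls in place of 8813 between the gates and 9043 in place of 9049 in the pool. For the 2 comparisons whose numbers pair, the block was also added to the 2-group fits. Responders against untreated cells then had 9459 calls, beside 9460 in the 2-group fit without the block and 9447 in the fit of all libraries. Bystanders against the pool had 8210 calls, beside 8205 in the 2-group fit without the block and 8440 in the fit of all libraries.

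Library totals alone gave log2 folds of -0.01 for Dusp4 and -0.23 for Mapk3 between the gates, -0.08 for Mapk3 and -0.23 for Mapk8 in the pool, -0.08 for Mapk3 and -0.24 for Mapk8 in responders against untreated cells, and -0.01 for Mapk8 in responders against the pool. Genes called lower among the 9 were then 3 in the pool, 3 in responders against untreated cells and 1 in responders against the pool. In the 6 libraries with neural transcripts, Mapk3 turned to 0.04 and Mapk14 lost its call at -0.13 between the gates, 1 of the 9 was lower there and 1 in bystanders against untreated cells, and 867 of all genes were called for responders against the pool in place of 3205. In the 10 without, Mapk8 was at 0.0 for responders against the pool. The log2 fold of Dusp4 in bystanders against the pool, 0.0, took values of -0.04 in those 10, -0.01 with DESeq2, 0.0 without a filter, in the 2-group fit and with the block, -0.02 to 0.01 with 1 library left out, and 0.14 with library totals alone, where it was called higher (adjusted p = 4.97e-05). Leaving out 1 library gave 0.08 to 0.14 for Mapk8 in the pool. The cause was not tested, except that the subsets hold fewer samples. The planned split on all 15 neural markers fell between the groups, so it gave only fits equal to those of 2 groups. Library totals alone also moved called values by over 1.5 times without a change of call: for Dusp4 to 0.34 in responders and 0.35 in bystanders and for Mapk3 to 0.15 in bystanders against untreated cells, and for Mapk3 to 0.23, Mapk8 to -0.16 and Mapk14 to 0.23 in bystanders against the pool.

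Depth limits Dusp2 and Mapk8 most, at 164 to 747 and 270 to 483 reads.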

Other observations

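The pool, which was not gated, lay between the means of both gates for 6 of the 9 genes, beside 53.1% of all genes tested and 82.9% of the 1404 genes that differed at least 2-fold between the gates. On the CPM scale, with bystanders set to 0 and responders to 1, the pool stood at 0.54 for Dusp1, 0.65 for Dusp5, 0.68 for Dusp16, 0.76 for Mapk14, 0.78 for Dusp2 and 0.83 for Mapk8, where the median of those 1404 genes was 0.85. For Dusp6 it stood at 1.13, since the pool mean of 111 CPM was below both the responder mean of 121 and the bystander mean of 195 CPM. For Dusp4 it stood at -0.01 and for Mapk3 at 2.41, where the gates differed little. The pool was collected after the gated cells, so collection order and gate cannot be told apart in these positions.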
